A study of Mus musculus with 2 samples.

Results

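The proximal microRNA cluster of the imprinted Dlk1-Dio3 region lies on the plus strand of mouse chromosome 12, between the long non-coding RNA gene Meg3 and the far end of the coding exon of Rtl1. Its members are the hairpins Mir673, Mir493, Mir337, Mir540, Mir665, Mir431, Mir433, Mir127, Mir434 and Mir136. They were chosen by name and position, with earlier results of these data already known. Mir3070a, Mir3070b and Mir432, which lie among them on the plus strand, were not taken. Of the 10 members, 9 had a row of their own among the 1973 gene rows of the deposited count tables. Mir136 had none under its identifier, and its locus is described separately. All 10 were located in GENCODE release M21 on GRCm38, the assembly also called mm10.

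In the Dlk1-Dio3 region, the chromosome inherited from the mother transcribes Meg3 and the microRNA hairpins, and the chromosome inherited from the father transcribes the protein-coding genes Dlk1, Rtl1 and Dio3. Rtl1 derives from a retrotransposon and is needed in the placenta and in fetal muscle of the mouse. Hairpins transcribed opposite to Rtl1 yield microRNAs that match its mRNA base for base, and in the mouse they guide cleavage of the paternal transcript.

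Small RNA was sequenced from limbs of mouse embryos at embryonic day 12.5, in a single group of 2 libraries. Per the labels, the strain was B6NCrl, each library came from a pool of embryos of both sexes (88 embryos for replicate 1 and 68 for replicate 2), no treatment or genetic change is named, and RNA below 30 nucleotides was taken. Replicate 1 gave 4525636 counts on microRNA genes and replicate 2 gave 3604284. Levels are given as CPM, the counts per 1000000 counts on microRNA genes, as mean ± SD over the 2 replicates (n = 2). With 1 group there was no contrast between conditions, and in pooled whole limbs fewer cells of a type and less RNA per cell cannot be told apart.

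The label "antisense to Rtl1" held for 5 of the 10 members. Mir431, Mir433, Mir127, Mir434 and Mir136 lay inside Rtl1 (chr12:109589193-109600330, minus strand), within 4942 bases and opposite to its coding sequence. The other 5 lay between the 2 genes, from Mir673, separated by 263 bases from the annotated end of Meg3, to Mir665. No member overlapped an annotated gene on its own strand. Together the 10 hairpins spanned 23399 bases.

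The mature sequences of the 5 Rtl1-antisense hairpins are shown because each of their 10 arms had an exact complement in the Rtl1 transcript. They are from RefSeq (GRCm38.p6, plus strand), 5′ to 3′, with the seed (bases 2 to 8, which pair first with a target) in capitals.
miR-431-5p: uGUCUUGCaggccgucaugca
miR-431-3p: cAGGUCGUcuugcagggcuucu
miR-433-5p: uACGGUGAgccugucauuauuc
miR-433-3p: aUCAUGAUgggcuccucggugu
miR-127-5p: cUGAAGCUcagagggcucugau
miR-127-3p: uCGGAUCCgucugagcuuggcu
miR-434-5p: gCUCGACUcaugguuugaacca
miR-434-3p: uUUGAACCaucacucgacuccu
miR-136-5p: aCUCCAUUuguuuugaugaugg
miR-136-3p: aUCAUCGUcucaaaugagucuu

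A search of the annotated Rtl1 transcript (6358 nt, coding sequence from position 148 to 5379) found 1 exact complement for each of these 10 sequences, and all 10 sites lay in the coding sequence. They ran from position 164 for miR-136-3p, near the start codon, to position 5092 for miR-431-5p, near the stop codon. As an example, the site of miR-127-3p at positions 2642 to 2663 of the transcript is shown on the mRNA strand, with the bases opposite to the seed in capitals.
Rtl1 site of miR-127-3p: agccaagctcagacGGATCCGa
Such a match follows from the position of the hairpins on the opposite strand, and no Rtl1 mRNA or cleavage was measured here. The 10 mature sequences of the other 5 hairpins had no exact complement in the same transcript.

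**Figure D1:**
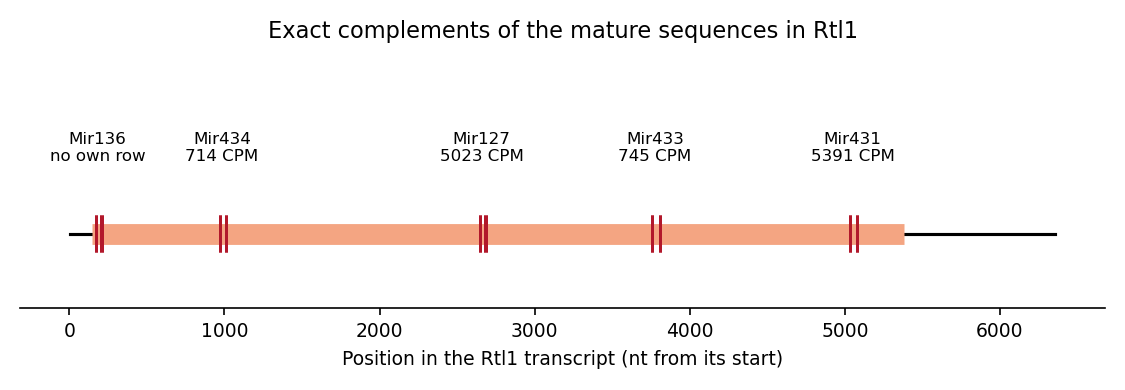
The Rtl1 transcript is drawn by position in nucleotides, with the coding sequence as the thick bar and the 10 exact complements of mature sequences as dark marks, 2 for each hairpin. Mean CPM is printed above each hairpin except Mir136, which had no row of its own. The sites nearest the stop codon belong to Mir431 at 5391 CPM and the central ones to Mir127 at 5023 CPM.

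All 20 mature sequences of the 10 hairpins carried different seeds. Only 2 of them shared a seed with another mature microRNA name among 1679 in the RefSeq table, miR-673-5p with miR-6985-3p and miR-540-3p with miR-6915-5p. No member hairpin had 20 nucleotides in a row in common with any other annotated microRNA hairpin (genomic sequence outside these genes was not searched). The longest stretch common to 2 of the mature sequences, over 190 pairs, joined the arms of Mir431, which is shown whole with both arms in capitals (chr12:109590447-109590537, plus strand).
Mir431 hairpin: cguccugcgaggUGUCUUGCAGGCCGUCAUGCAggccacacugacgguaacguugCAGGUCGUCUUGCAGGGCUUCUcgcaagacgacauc
Its 10 shared bases, GUCUUGCAGG, start at base 2 of miR-431-5p, so they contain its seed, and at base 7 of miR-431-3p, whose seed they overlap by its last bases only. Stretches of 9 bases were shared by the arms of Mir434 (UUUGAACCA) and by miR-337-5p with miR-431-5p (CGUCAUGCA). Shared stretches of 8 bases or more occurred in 3 of the 190 pairs.

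The 9 measured members together held 65613 counts in replicate 1 and 51253 in replicate 2. That was 1.45% of the counts in the first library, with a 95% Clopper-Pearson interval of 1.44 to 1.46, and 1.42% in the second, with one of 1.41 to 1.43, for a mean of 1.44% ± 0.020. All 9 reached the detection level of 10 CPM in each library, a rule that 14.5% of all gene rows passed. All 9 also exceeded 100 CPM in each library, and 189 of all 1973 gene rows reached 100 CPM in the mean. Mir3070a, Mir3070b and Mir432, which lie among the members but are not in the list, were not detected. Levels of the members ran from 119 ± 4.4 CPM for Mir673 to 5391 ± 103 CPM for Mir431, a ratio of 43.6 in replicate 1 and 47.2 in replicate 2. The range from the lowest to the highest member was thus alike in the libraries, while some members between them changed places.

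**Figure D2:**
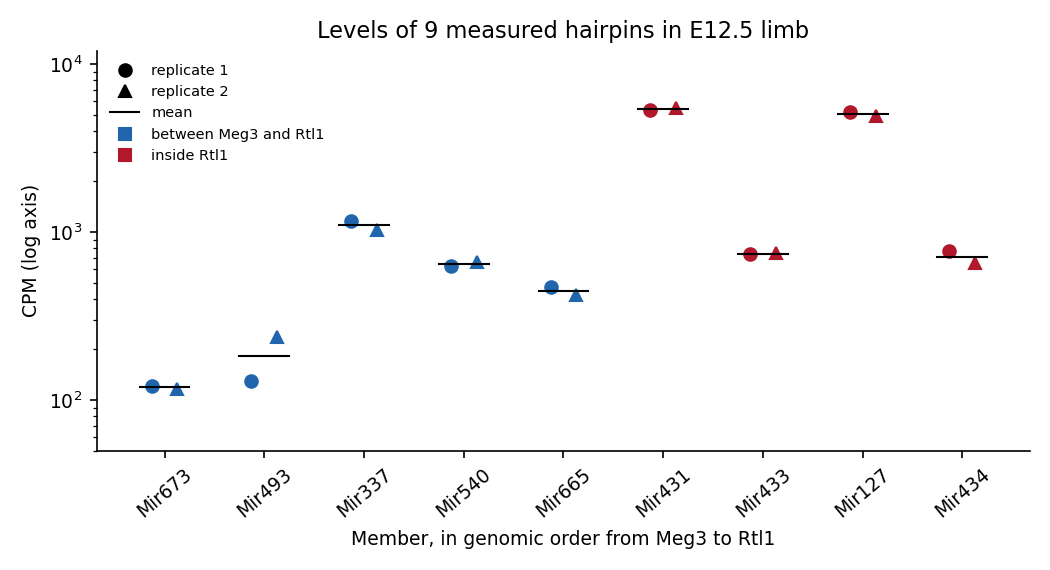
CPM on a log axis for the 9 measured hairpins in genomic order, with circles for replicate 1, triangles for replicate 2 and lines for the mean. Mir431 and Mir127 stand at 5391 and 5023 CPM in the mean, the other 7 lie at or below 1094 CPM in the mean, and only the points of Mir493 are far apart.

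Among the Rtl1-antisense hairpins, Mir431 and Mir127 led. Mir431, studied in mouse muscle stem cells for its action on the regulator Pax7, stood at 5318 CPM in replicate 1 and 5464 CPM in replicate 2. Mir127, known from the mouse as a regulator of Rtl1 (chr12:109592846-109592915), stood at 5164 CPM in replicate 1 and 4881 CPM in replicate 2. The ranges of the pair did not overlap, but the gap was small: the ratio of Mir431 to Mir127 was 1.03 in replicate 1 and 1.12 in replicate 2.

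That order turned round per hairpin length. At 70 bases the Mir127 hairpin is shorter than that of Mir431 at 91 bases, and per 100 bases Mir127 reached 7175 CPM and Mir431 5924 CPM. Each read is a whole short RNA cut from the hairpin rather than a fragment of its length, so counts need not scale with hairpin length. Values per 100 bases are given only as an alternative scale, and changes of order on it follow from the annotated hairpin lengths. On either scale Mir431 and Mir127 were the 2 highest members, and together they made up most of the cluster: Mir431 held 37.6% ± 1.23 of the members' counts and Mir127 35.0% ± 0.91. Per 100 bases Mir540, at 963 CPM, also came before Mir434 at 759 CPM, and Mir434 before Mir433 at 601 CPM, while Mir337, Mir665, Mir493 and Mir673 kept their places.

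The other Rtl1-antisense hairpins with a row stood much lower. Mir433, known in mouse osteoblast precursors as a repressor of the bone regulator Runx2 (chr12:109591715-109591838), had 740 CPM in replicate 1 and 749 CPM in replicate 2, the closest agreement among the 9 measured members. Mir434 (chr12:109594506-109594599) had 775 CPM in replicate 1 and 653 CPM in replicate 2. The ranges of Mir433 and Mir434 overlapped, and the libraries ordered the 2 genes differently. Only 1177 bases separate Mir433 from Mir431 and 1007 bases from Mir127, yet the ratio of Mir431 to it was 7.18 in replicate 1 and 7.29 in replicate 2, or 9.79 and 9.94 per 100 bases of hairpin. The gap between these neighbours was thus alike in the replicates. How well library preparation recovered each sequence was not measured.

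**Figure D3:**
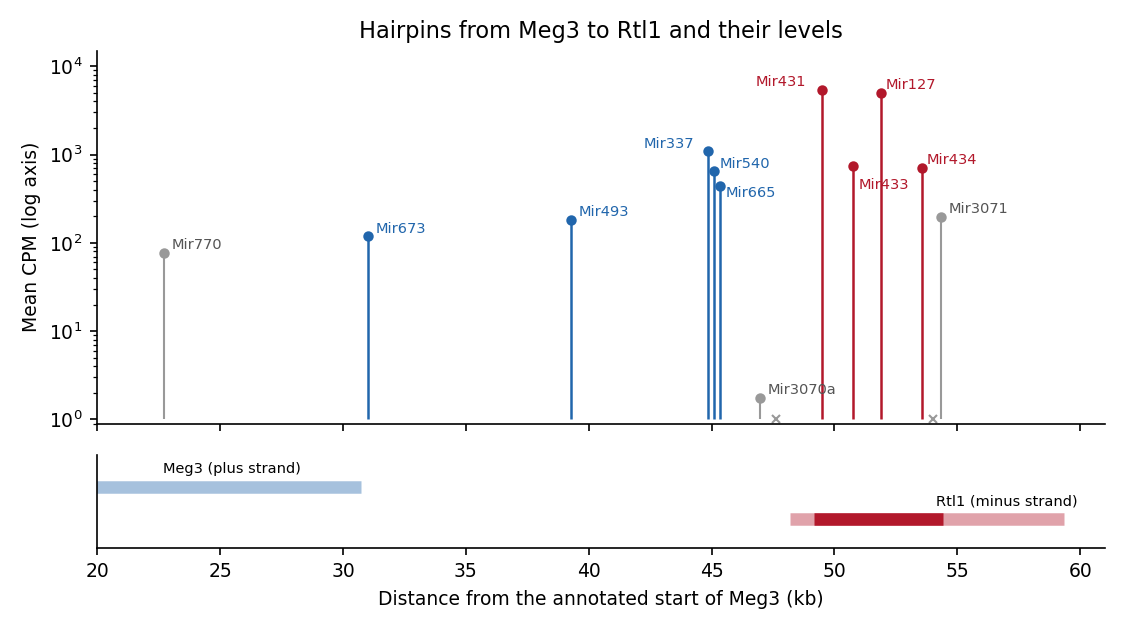
The upper panel gives mean CPM on a log axis against the distance in kb from the annotated start of Meg3, and the lower panel gives the end of Meg3 and the whole of Rtl1 with its coding sequence dark. Members between the genes are blue, members inside Rtl1 red, and other microRNA rows grey, with crosses for rows of 0 counts: Mir431 and Mir127 are the high red lines, with Mir433 between them at 745 CPM.

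Of the hairpins between Meg3 and Rtl1, Mir337 was highest. Mir337, whose 3p arm has been studied in rat cartilage cells as a repressor of a TGF-beta receptor (chr12:109585789-109585885), had 1157 CPM in replicate 1 and 1030 CPM in replicate 2, and was the third highest member. Mir540 (chr12:109586080-109586146) had 624 CPM in replicate 1 and 666 CPM in replicate 2. Mir665 (chr12:109586314-109586407) had 468 CPM in replicate 1 and 424 CPM in replicate 2.

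These 3 hairpins sit within 619 bases, with gaps of 194 and 167 bases. In each library the order of their levels followed their genomic order, with Mir337 highest, and the ratio of Mir337 to Mir665 was 2.47 in replicate 1 and 2.43 in replicate 2. The ratio of Mir337 to Mir540 was 1.85 in replicate 1 and 1.55 in replicate 2, or 1.28 and 1.07 per 100 bases of hairpin. Mir540 and Mir434 had overlapping ranges.

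The 2 hairpins nearest Meg3 were the lowest. Mir673 (chr12:109571990-109572080) had 122 CPM in replicate 1 and 116 CPM in replicate 2. Mir493, known in human colon cancer cells for restraining metastasis (chr12:109580233-109580315), had 129 CPM in replicate 1 and 237 CPM in replicate 2. The SD of Mir493 was 41.5% of its mean, against 0.85% for Mir433. Mir434, at 714 ± 86 CPM, had the next widest relative spread. Of the 8 neighbouring pairs in the order of levels, 6 did not overlap, and the overlapping ones were Mir433 with Mir434 and Mir434 with Mir540.

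By position, the 4 measured hairpins inside Rtl1 held 82.7% ± 0.096 of the members' counts and the 5 between the genes 17.3%. The summed level of the inner hairpins was 11872 ± 176 CPM and that of the outer ones 2487 ± 20 CPM, a split set by Mir431 and Mir127. The median was 2884 CPM for the inner and 446 CPM for the outer hairpins, but Mir337 of the outer group exceeded both Mir433 and Mir434 of the inner one in each library.

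The locus of Mir136 gave reads that the tables do not assign to it. Mir136 (chr12:109595327-109595388, plus strand) lies within the span of Mir3071 (chr12:109595318-109595397, minus strand in release M21), and only Mir3071 had a row. That row held 954 counts on its own strand in replicate 1 and 656 in replicate 2, or 211 and 182 CPM. Of its 1611 counts on both strands and in both libraries, 1610 lay on the strand the tables call its own. Which strand release M4, used for the counting, gave this row is not given in the sources used here, so these reads could not be assigned to Mir136 or to Mir3071. With them added, an alternative chosen after seeing the data, the cluster held 1.46% ± 0.022 of the counts.

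Other microRNA rows between the start of Meg3 and Mir379, the first hairpin of the distal cluster, numbered 11 with the Mir3071 row. Mir770, inside the annotated span of Meg3, had 71.8 CPM in replicate 1 and 83.0 CPM in replicate 2. Mir3070a, between Mir665 and Mir431, had 11 counts in replicate 1 and 4 in replicate 2, and its neighbour Mir3070b had 0 in each. Mir432, between Mir434 and Mir136, also had 0 counts, as had Mir1906-1 and Mir882, and a count of 0 allows up to 0.663 CPM in replicate 1 and 0.832 CPM in replicate 2. Beyond Rtl1, Mir341 had 726 ± 122 CPM, Mir370 510 ± 12 CPM, Mir1188 8.92 ± 3.86 CPM and Gm23912 1 count in all.

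Beside the distal cluster of the same imprinted region, taken as the 33 plus-strand rows from Mir379 to Mir410, the proximal members were fewer and, in the middle, higher. The median level of the 9 members was 714 CPM, against 198 CPM in the distal rows and 269 CPM in the 286 detected rows of the whole table, where the median over all 1973 rows was 0. Per 100 bases of hairpin the medians were 759 CPM for the members and 245 CPM for the distal rows. With the lists as drawn, the distal rows ranged wider, and 28 of 33 were detected. Their leading genes Mir487b at 6482 ± 156 CPM, Mir411 at 5993 ± 94 CPM and Mir369 at 4024 ± 65 CPM stood above or near Mir431 and Mir127.

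Only 2 distal rows exceeded Mir431. The members held 28.4% ± 0.26 of the counts of all 58 microRNA rows from Meg3 to 10 kb past Mir410. The 2 lists were not drawn alike, and both were drawn with levels of these libraries already known. The distal list took every plus-strand row of its span. The proximal list took named members and left out Mir3070a, Mir3070b and Mir432, plus-strand rows lying among them at 1.77, 0 and 0 CPM. Such low rows would lower the proximal median, so the medians describe the lists as drawn. No test of the difference was made.

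**Figure D4:**
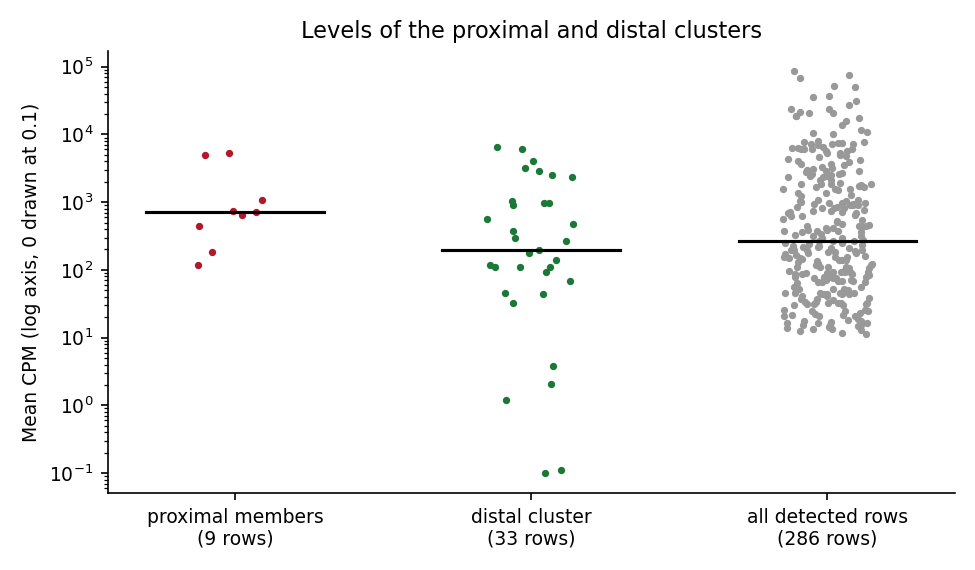
Mean CPM on a log axis of each row among the 9 proximal members, the 33 distal rows and the 286 detected rows of the table, with lines at the medians of 714, 198 and 269 CPM. The 9 proximal points all lie above 100 CPM, while distal points reach down to 0. Mir3070a, Mir3070b and Mir432, which lie among the proximal members at 1.77, 0 and 0 CPM, are not drawn.

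Mir431 ranked 42nd of all gene rows. The row just above it was Mir30a at 5666 ± 552 CPM and the row just below it Mir143, a microRNA of smooth muscle, at 5260 ± 26 CPM. Mir127 was 44th, so the 2 leading members bracketed Mir143. The lowest member, Mir673, was 182nd. Reads mapping to several places were not in the gene rows, so genes with near-identical copies could rank too low beside the members. How far this moved the ranks was not tested.

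The members were reproducible to within the counting error for some and beyond it for others. Replicate 1 was compared with replicate 2 by a two-sided exact binomial test on the counts, which tests these libraries against counting error alone, not a condition, with Benjamini-Hochberg adjustment over 436 gene rows. It called 7 of the 9 members, against 41.7% of the rows tested and 74.1% of the 189 rows at 100 CPM or more, so the members' count is near that of rows of like depth. The median size of the log2 ratio was 0.09 for the members and 0.18 for those 189 rows.

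Mir493 was the exception in size. Its log2 ratio of replicate 1 over replicate 2 was -0.87 (SE of counting error 0.077, adjusted p = 3.84e-29 in the exact binomial test), from 585 counts in replicate 1 and 853 in replicate 2. Only 2 of the 189 rows at 100 CPM or more had a larger ratio in either direction. Among the members Mir434 was next in size with a log2 ratio of 0.25 (SE 0.038, adjusted p = 6e-10 in the exact binomial test), in the opposite direction.

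The other called members differed little. Mir337 and Mir665 had log2 ratios of 0.17 and 0.14, Mir127 one of 0.08, Mir540 one of -0.09 and Mir431 one of -0.04. Mir673 and Mir433 were not called, at log2 ratios of 0.08 (SE 0.094) and -0.02 (SE 0.037). By direction, 4 called members were higher in replicate 1, against 21.3% of the rows tested, and 3 were higher in replicate 2, against 20.4%. Those shares cover tested rows of every depth. Among the 286 detected rows, 88 were called higher in replicate 1 and 81 higher in replicate 2. The calls of Mir431 and Mir540 were lost with another library scaling: their adjusted p in the exact binomial test was 0.298 and 0.146 with trimmed-mean library sizes.

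**Figure D5:**
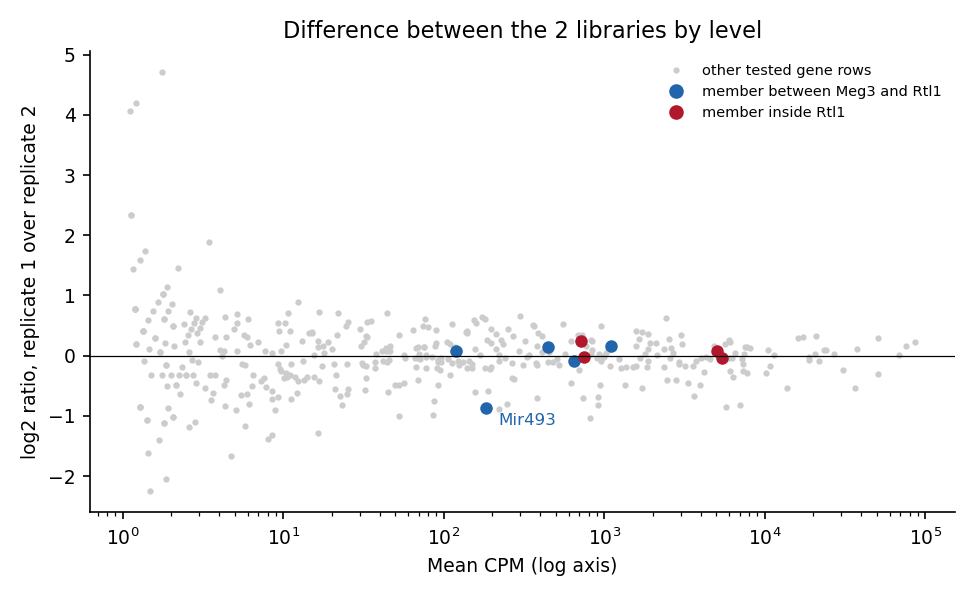
The log2 ratio of replicate 1 over replicate 2 against mean CPM on a log axis for the 436 tested gene rows, with members between Meg3 and Rtl1 in blue and members inside Rtl1 in red. The members lie close to 0 except Mir493 at -0.87.

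On the opposite strand, where Rtl1 and Mir3544 are annotated, the members had next to no reads. In all they held 9 opposite-strand counts in replicate 1 and 7 in replicate 2, and 7 of the 9 members had 0 in both libraries. Mir431, Mir433 and Mir127, opposite to the Rtl1 coding sequence, were among these, and Mir434 had 1 count in replicate 1. Mir337, which overlaps Mir3544 on the other strand, held the rest, 8 counts in replicate 1 and 7 in replicate 2, beside 5237 and 3713 counts on its own strand. So few opposite-strand reads were not particular to the members, as no row of the distal cluster had any in either library. Of all 1973 gene rows, 18 (0.912%) had more than 3 opposite-strand counts in both libraries, and Mir337 was the only member among them. RNA above 30 nucleotides was not taken, so the Rtl1 mRNA itself was outside the measurement.

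The tissue label was checked on other microRNAs. All 6 limb markers, for cartilage, mesenchyme, skeletal muscle, ectoderm and endothelium, were detected, between 2347 CPM for Mir206 and 51056 CPM for Mir214. Of 6 neural marker genes 5 had a row, 4 of these at 0 counts and Mir9-3 at 1.11 CPM. Of the markers of other tissues, Mir451a of red blood cells stood at 174 ± 54 CPM, Mir122 of liver at 15.0 ± 2.8 CPM and Mir208a of heart at 10.3 ± 1.5 CPM. Mir451a and Mir122 reached 10 CPM in both libraries, and Mir451a was above the level of Mir673 in the mean. The part of these tissues in the levels of the cluster, which is also known from the brain, was not tested. Near-identical copies of the neural genes could lose reads as multiply mapped, so their low counts cannot tell whether neural tissue was present.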

How the data were processed

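Small RNA libraries of 2 pools of embryonic limb were deposited as whole-number counts per microRNA gene, in 3 columns (both strands, own strand, opposite strand); the first was the sum of the others in all 1973 gene rows. Per the README deposited with each library, the assembly was mm10 and the annotation GENCODE release M4; aligner, counter and trimming are not given in the sources used. Own-strand counts were divided by their total over gene rows. Left out were 4 rows without a gene, which held 57.5% of reads in replicate 1 and 63.0% in replicate 2, including 27.2% and 23.7% mapping to several places. Identifiers were matched without version to release M21 (1894 of 1973 rows). Both arms of a hairpin are counted together. The Clopper-Pearson intervals (95%) and the floor of 3 counts cover counting error only.

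Log2 ratios had 0.5 counts added to each library. The exact binomial test (scipy 1.17.1) was run on rows with 10 counts or more in the sum, at an adjusted p threshold of 0.05. It was tried on simulated libraries with counting error and set fold changes only. That simulation lacks the further spread seen between these libraries. Alternatives used edgeR 4.0.16 and DESeq2 1.42.0 scaling. Named genes were all members, every other row from Meg3 to Mir379, the 3 highest distal rows and the rank neighbours of the highest member. Members and lists were chosen with earlier results of these data known. The labels number the libraries as biological replicates from separate pools.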

Additional observations from a re-analysis of the deposited data

Results flagged for a closer look

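The counts of the strand opposite to a member were outside the main measurement. On the strand opposite to Mir337 lay 8 counts in replicate 1 and 7 in replicate 2, above the 3 counts that a count of 0 allows, and Mir3544 is annotated there. Of the hairpin's reads on either strand they made up 0.153% in the first library, with a 95% Clopper-Pearson interval of 0.066 to 0.30, and 0.188% in the second, with one of 0.076 to 0.387. Of all 1973 gene rows, 18 (0.912%) had more than 3 opposite-strand counts in both libraries.

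The row of Mir3071, which overlaps Mir136, was not among the members and held 954 counts in replicate 1 and 656 in replicate 2.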

How the results depend on the processing

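With 1 group, the cluster share depended on the denominator: it was 0.571% of all reads, 1.40% with gene totals of both strands and also 1.40% with counts of both strands, and 2.81% of the gene counts without the 10 highest genes. The median level of the members, 714 CPM, became 286 CPM of all reads and 1398 CPM without the 10 highest genes. Leaving out a replicate gave shares of 1.42% to 1.45%, median levels of 666 to 740 CPM and median log2 levels of 9.38 to 9.53, with 9 members detected either way. Detection at 1 or 100 CPM left the 9 detected members as they were. Trimmed-mean sizes and size factors left the share (1.44%) and the order of the members as they were. The binomial test called 5 of the 9 members with either scaling, against 178 of the 436 rows tested. With every row that had any count it called 6 members, against 174 of 717 rows. With 100 counts or more in the sum it called 7 members, against 177 of 285 rows. Mir431 and Mir540 were the called members lost with either scaling (adjusted p in the binomial test up to 0.343 and 0.158). This loss follows from the scaling, as nothing else was changed. No called log2 ratio changed sign; that of Mir433, not called, was -0.02 and became 0.0025 with trimmed-mean sizes and 0.0042 with size factors. No paired analysis was possible because both libraries belong to 1 group. Depth limits the rows at 0 counts; the 9 members had at least 417 counts in each library.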
